A study of Mus musculus with 4 samples.

Results

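Interferon-stimulated genes and the factors that control them were described in mouse pancreatic cancer cells of the C57BL/6 strain. The set holds 33 named genes, taken wherever the gene name of a probe equals a member's name, out of 36918 gene names on the array. All 33 had at least 1 probe, and 23 gave enough signal to be tested. Cells named K5 and K6 were each kept with halofuginone at 100 nM for 24 hours or with the DMSO control, and each line and condition gave 1 array, 4 in all. Halofuginone blocks prolyl-tRNA synthetase. K5 and K6 are called lines for short, which is assumed. The sources used here do not say what distinguishes K5 from K6, what all of the cells carry in common beyond the strain, or whether samples came from separate cultures. P-values therefore rest only on the spread between these 4 samples, which may be technical, with each gene's spread drawn toward that of all tested genes.

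Interferons are secreted proteins that bind receptors coupled to the kinases JAK1 and TYK2. These phosphorylate STAT proteins. A complex that holds STAT2 and IRF9 binds the interferon-stimulated response element (ISRE) in front of target genes, while STAT dimers bind gamma-activated sites (GAS). Many of the products are antiviral: some sense foreign nucleic acid, some degrade RNA or block its translation, and some hold virus at membranes. Tumour cells can run part of this program without infection, through sensing of their own nucleic acids or through factors such as IRF1.

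The stretches of DNA just ahead of 5 members, each with a match, are printed as examples of these sites. Not all members have such a match, and the rule for choosing members did not use the sites. Each is the 170 bases before the gene's start in RefSeq's annotation of GRCm38.p6, 5′ to 3′ on the gene's own strand, with motif matches in capitals. The ISRE core searched was GAAA, any 2 bases and GAAA, or on the other strand TTTC, any 2 bases and TTTC, and the GAS core was TTCNNNGAA, which reads the same on both strands. Irf1 lies on the plus strand (chr11:53769844-53770013), Ifit3 on the plus strand (chr19:34583359-34583528), Gbp2 on the plus strand (chr3:142620493-142620662), Oas1a on the minus strand (chr5:120907526-120907695) and Isg15 on the minus strand (chr4:156200819-156200988).
Irf1: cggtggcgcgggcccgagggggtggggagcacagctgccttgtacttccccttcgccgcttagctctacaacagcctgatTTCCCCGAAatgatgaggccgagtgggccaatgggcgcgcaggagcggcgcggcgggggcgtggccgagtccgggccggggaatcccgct
Ifit3: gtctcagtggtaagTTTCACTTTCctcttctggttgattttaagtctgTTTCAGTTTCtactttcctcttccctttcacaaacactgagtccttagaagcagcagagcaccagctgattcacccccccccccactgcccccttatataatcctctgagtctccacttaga
Gbp2: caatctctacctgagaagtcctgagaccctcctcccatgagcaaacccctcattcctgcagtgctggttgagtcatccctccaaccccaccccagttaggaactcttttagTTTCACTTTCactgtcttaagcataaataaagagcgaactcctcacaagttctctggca
Oas1a: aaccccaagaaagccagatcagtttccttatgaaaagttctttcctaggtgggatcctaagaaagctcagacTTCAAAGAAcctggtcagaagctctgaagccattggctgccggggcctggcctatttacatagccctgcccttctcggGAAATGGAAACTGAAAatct
Isg15: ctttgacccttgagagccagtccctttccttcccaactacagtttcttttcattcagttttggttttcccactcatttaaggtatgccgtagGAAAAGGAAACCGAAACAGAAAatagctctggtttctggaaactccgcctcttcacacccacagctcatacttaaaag

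The Irf1 stretch holds a GAS match alone, the Ifit3, Gbp2 and Isg15 stretches hold ISRE matches, and Oas1a holds both kinds. Windows from 250 bases before to 50 after a start were found for 26 of the 33 members. An ISRE match was present for 14 of these 26 genes (14 of their 32 windows), against 3.44% of all 32851 windows. A GAS match was present for 7 of the 26 genes (7 of 32 windows), against 8.30% of all windows. The matches to both cores overlapped in Ifitm3 and Bst2. A match describes the letters and does not show binding.

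RNA was labelled with Cy3 and read on 1-colour Agilent arrays. Levels are log2 of the scanner's processed signal relative to the 75th percentile of the array, so that 0 is that percentile and 1 unit is a doubling. Levels of different genes come from different probes and are not compared. Well above background is the scanner's own flag. It marked 53.1% and 54.0% of spots in halofuginone K5 and K6, against 47.2% and 48.6% in control K5 and K6, and no spot was saturated. The lowest level so marked was -4.92 and -5.01 in halofuginone K5 and K6, against -4.17 and -4.25 in the controls. Genes dim on both arrays of a line, which have no measured level, still read lower after halofuginone, by a median of -0.76 in K5 and -0.71 in K6. Readings of dim members carry the same offset. Of 7 epithelial and ductal markers, 7 were well above background on all 4 arrays, among them Krt8, Krt18, Krt19 and Epcam. The acinar genes Ptf1a, Cpa1, Amy2b and Prss2 were dim on all 4, and Cela1 fell by 2.53. Of the endothelial genes Kdr rose by 2.61, and 0 of 3 tested fibroblast genes passed.

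Members fell into classes of detection. On all 4 arrays 13 were well above background, 10 on 2 or 3 arrays, 2 on 1 array, and 8 on none. The 8 without a measured level were Oas1g, Oas2, Oas3, Ifit1, Ifitm3, Rsad2, Cmpk2 and Ifi44, which include classical markers of a strong interferon response such as Rsad2, encoding viperin. By array, 22 members were detected in halofuginone K5 and 21 in control K5, and 17 in halofuginone K6 and 19 in control K6. Only the 23 members detected on at least 2 arrays were tested, so counts below do not describe the whole set.

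**Figure D1:**
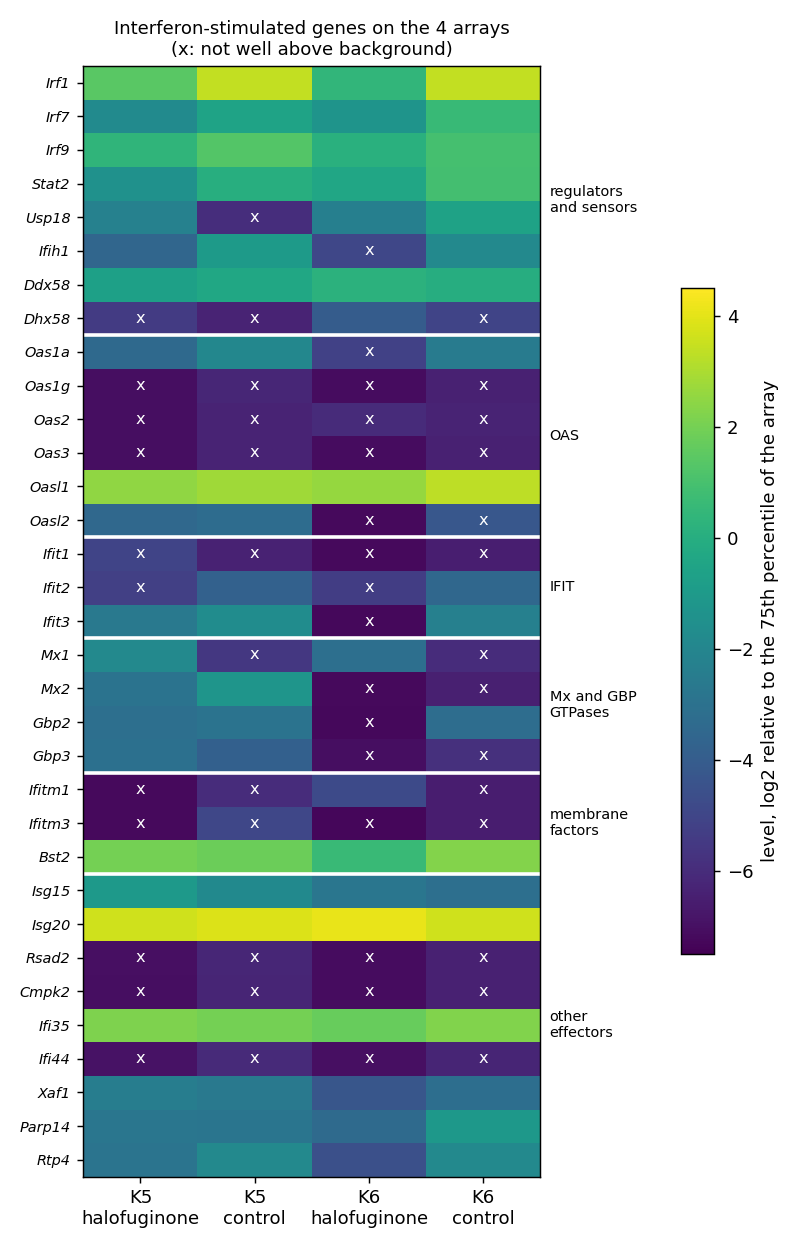
Level of the 33 members (rows, grouped by role) on the 4 arrays (columns), as log2 relative to the 75th percentile of the array; x marks readings not well above background. Irf1, Irf9, Isg20, Oasl1, Ifi35 and Bst2 lay above 0 on every array, and 8 members were dim on every array.

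Halofuginone was compared with control in a limma fit with the line as a block, over 19093 genes. Among the tested members, 3 fell after halofuginone, the transcription factor Irf1, the RNA sensor Ifih1 and the RNA-binding effector Ifit2, and 1 rose, the GTPase Mx1. Another 19 did not pass. Across all tested genes 5.08% passed as lower and 3.88% as higher, 8.96% in all (Benjamini-Hochberg adjusted p under 0.05). The 4 calls were lost when the line was not kept as a block, when no filter was set or when probes of a gene were averaged, where 0 members passed (limma; 8, 13 and 10 with an unadjusted p under 0.05). Mx1 and Ifit2 were also not called with dim readings set to a common floor, and a second Mx1 probe was dim on all 4 arrays. Ifit2 was detected in control samples alone and Mx1 in halofuginone samples alone, so these members entered the test only through the condition in which they were high. The fit has 1 residual degree of freedom, and its residual is the difference between the changes in the 2 lines. The variance that limma borrows from all tested genes weighs more, at 2.97 degrees of freedom, and no SE was below 0.255. The smallest change that passed over all tested genes was 2.80-fold.

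Among the regulators, Irf1 encodes a transcription factor that drives interferon-stimulated genes and is itself induced by interferon. Its level was 1.44 in halofuginone K5 against 3.41 in control K5, and 0.41 in halofuginone K6 against 3.40 in control K6. Both halofuginone samples lay below both control samples, which were nearly equal. Irf1 fell by 2.48 in log2 units (SE 0.36, limma adjusted p = 0.045), which puts control 5.59-fold higher. Its probe covers bases 53590746 to 53590805 of mm9 chromosome 11. A dimmer Irf1 probe changed by -1.66 in K5 and -2.89 in K6. The GAS match ahead of Irf1 is the one printed above.

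Irf7, Irf9 and Stat2 encode the factors that amplify and carry type I interferon signals. Irf7, the main amplifier of interferon genes, had -1.78 in halofuginone K5 against -0.55 in control K5, and -1.29 in halofuginone K6 against 0.58 in control K6 (log2 change -1.55, SE 0.30, limma adjusted p = 0.058). Stat2 had -1.45 in halofuginone K5 against 0.02 in control K5, and -0.41 in halofuginone K6 against 0.91 in control K6 (log2 change -1.39, SE 0.26, limma adjusted p = 0.054). Irf9, the DNA-binding part of the complex, had 0.35 in halofuginone K5 against 1.31 in control K5, and 0.10 in halofuginone K6 against 0.97 in control K6 (log2 change -0.91, SE 0.26, limma adjusted p = 0.10). In all 3 genes both halofuginone samples lay below both control samples, and none passed the threshold. Irf7 and Stat2 passed under 5 of 10 alternative settings each, as lower, and Irf9 under 2. A second Irf9 probe changed by -0.93 in K5 and -0.61 in K6, and the second Stat2 probe was left out for outlier spots.

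The RIG-I-like receptors sense viral RNA in the cytosol. Ifih1, which encodes MDA5, had -3.52 in halofuginone K5 against -0.97 in control K5, and -4.95 in halofuginone K6, not well above background, against -1.85 in control K6. Both halofuginone samples lay below both controls, and Ifih1 fell by 2.82 (SE 0.29, limma adjusted p = 0.037, detected on 1 of 2 halofuginone arrays). In K6 alone control was at least 8.56-fold above halofuginone, counting the dim array at its detection limit or its own reading, whichever is higher. The Ifih1 probe lies on mm9 chromosome 2 from 62435621 to 62435680. A second Ifih1 probe was dim on all 4 arrays, and 6 of 9 alternative settings called Ifih1 lower.

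Ddx58, which encodes RIG-I, had -0.69 in halofuginone K5 against -0.36 in control K5, and 0.22 in halofuginone K6 against -0.02 in control K6. The samples overlapped, with a log2 change of -0.04 (SE 0.29, limma adjusted p = 0.93), and a second detected probe changed by 0.03 in K5 and 0.16 in K6. Dhx58, which encodes the regulator LGP2, was detected in halofuginone K6 alone and was not tested.

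Usp18 encodes the protease that removes ISG15 from proteins and also blocks the interferon receptor. Its level was -2.23 in halofuginone K5 against -5.93 in control K5, which was not well above background, and -2.32 in halofuginone K6 against -0.57 in control K6. Halofuginone samples were nearly equal in the 2 lines, and the controls stood far apart. Halofuginone was at least 3.85-fold above control in K5, while in K6 the log2 change was -1.75, so the lines read in opposite directions. Over both lines the log2 change was 0.98 (SE 1.39, limma adjusted p = 0.65). That difference between lines has no test, because no line holds replicate arrays.

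**Figure D2:**
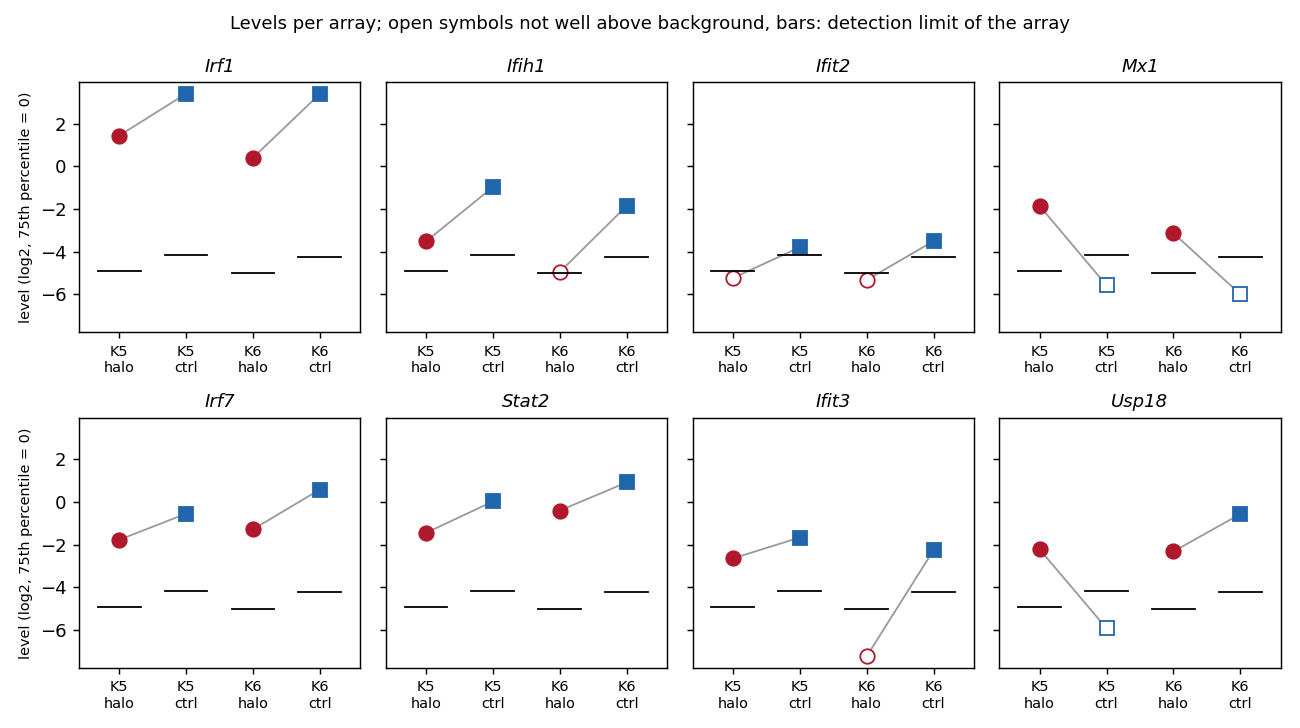
Level of 8 members per array (log2 relative to the 75th percentile of the array, vertical axis), with halofuginone as circles left of control as squares in each line; open symbols are not well above background, and black bars mark the array's detection limit. Irf1, Ifih1, Ifit2, Irf7, Stat2 and Ifit3 lie lower in halofuginone in both lines, Mx1 higher in both, and Usp18 higher in K5 and lower in K6.

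The OAS family senses double-stranded RNA and makes oligoadenylates, which lead to RNA decay. Oas1a had -3.41 in halofuginone K5 against -1.96 in control K5, and -5.20 in halofuginone K6, not well above background, against -2.51 in control K6. Both halofuginone samples lay below both controls without passing (log2 change -2.07, SE 0.40, limma adjusted p = 0.058), and 4 of 9 alternative settings called it lower. Oasl1, an OAS-like protein that in mice restrains translation of Irf7, had levels between 2.50 and 3.31 on all arrays and a log2 change of -0.49 (SE 0.28, limma adjusted p = 0.29). Oasl2 read -3.46 in halofuginone K5 against -3.25 in control K5, and was dim on both K6 arrays (limma adjusted p = 0.22). OAS genes resemble each other in sequence, so 1 probe may read several of them.

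IFIT proteins bind viral RNA and hinder its translation. Ifit2 had -5.24 in halofuginone K5 against -3.79 in control K5, and -5.32 in halofuginone K6 against -3.50 in control K6. Neither halofuginone sample was well above background and both controls were. Ifit2 fell to at most that limit, with control at least 2.50-fold above halofuginone (limma adjusted p = 0.049 on values as read), at a probe on mm9 chromosome 19 from 34650244 to 34650303. That call was lost with 6 of 9 alternatives.

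Ifit3 had -2.65 in halofuginone K5 against -1.67 in control K5, and -7.25 in halofuginone K6, not well above background, against -2.27 in control K6. Its change was -0.98 in K5, and in K6 control was at least 6.69-fold above halofuginone. Over both lines the log2 change was -2.98 with an SE of 1.04, and it did not pass (limma adjusted p = 0.14). Ifit1 was dim on all 4 arrays.

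Mx1 encodes a GTPase that blocks influenza virus, and in most inbred laboratory mice, C57BL/6 among them, the gene carries a deletion that abolishes the protein. Its level was -1.85 in halofuginone K5 against -5.58 in control K5, and -3.13 in halofuginone K6 against -5.99 in control K6. Both halofuginone samples and neither control were well above background. Mx1 rose at least 3.30-fold (limma adjusted p = 0.037 on values as read), by at least 5.0-fold in K5 and 2.17-fold in K6. The probes of Mx1 disagreed. The chosen one aligns on mm9 chromosome 16 from 97668644 to 97668668 only. That short stretch lies wholly within that of a second one, from 97668644 to 97668703, which was dim on all 4 arrays. The rise of Mx1 thus rests on 1 probe and was not seen with another over the same bases.

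Mx2, a related GTPase, had -2.93 in halofuginone K5 against -1.22 in control K5, and was dim on both K6 arrays (log2 change -1.23, SE 0.35, limma adjusted p = 0.10). The guanylate-binding proteins attack vacuoles that hold microbes. Gbp2 had -3.14 in halofuginone K5 against -2.95 in control K5, and -7.23 in halofuginone K6, not well above background, against -3.21 in control K6. Its K5 arrays differed little, while in K6 control was at least 3.48-fold above halofuginone (log2 change over both lines -2.10, SE 1.0, limma adjusted p = 0.22). Gbp3 had -3.09 in halofuginone K5 against -3.84 in control K5 and was dim on both K6 arrays (limma adjusted p = 0.78).

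Bst2 encodes tetherin, which holds budding virus at the cell surface. It had 2.0 in halofuginone K5 against 1.80 in control K5, and 0.62 in halofuginone K6 against 2.28 in control K6. The lower value stood in halofuginone K6 alone, and the log2 change was -0.73 (SE 0.53, limma adjusted p = 0.39). Of the IFITM proteins, which stop viral entry, Ifitm1 was detected in halofuginone K6 alone, at -4.82, and Ifitm3 on no array.

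Isg15 encodes the ubiquitin-like modifier of the response. It had -0.99 in halofuginone K5 against -1.81 in control K5, and -2.77 in halofuginone K6 against -3.10 in control K6, higher after halofuginone in each line without passing (log2 change 0.57, SE 0.28, limma adjusted p = 0.24). Isg20, an RNA exonuclease, had levels from 3.62 to 4.11 and a log2 change of 0.12 (SE 0.31, limma adjusted p = 0.81), which turned to -0.020 with quantile normalization. Ifi35 had levels from 1.71 to 2.24 and a log2 change of -0.18 (SE 0.31). Second probes of Isg20 and Ifi35 gave mean changes of 0.13 and 0.05.

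Rtp4, an interferon-induced chaperone-like protein, had -2.89 in halofuginone K5 against -1.85 in control K5, and -4.56 in halofuginone K6 against -1.85 in control K6. Its controls were equal and both halofuginone samples lay below them (log2 change -1.88, SE 0.49, limma adjusted p = 0.089). Parp14, an ADP-ribosyltransferase, had -2.79 in halofuginone K5 against -2.84 in control K5, and -3.37 in halofuginone K6 against -1.12 in control K6 (log2 change -1.10, SE 0.63, limma adjusted p = 0.30). Xaf1, a pro-apoptotic partner of XIAP, had -2.42 in halofuginone K5 against -2.66 in control K5, and -4.27 in halofuginone K6 against -3.16 in control K6 (limma adjusted p = 0.51). In Parp14 and Xaf1 the K5 arrays were close, and the halofuginone K6 array lay lowest of the 4.

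Within a line there is no replicate, so changes there carry no test and were counted at 2-fold or more, with the brighter array well above background. In K5, 8 of the 23 tested members were lower after halofuginone and 2 higher, against 14.9% and 14.1% of all tested genes. In K6, 13 were lower and 1 higher, against 16.4% and 16.4% of all tested genes. Those lower in both lines were Ifih1, Ifit2, Irf1, Irf7, Oas1a, Rtp4 and Stat2. Ifit2 was dim on both halofuginone arrays, and Ifih1 and Oas1a were dim in halofuginone K6. The share of all tested genes lower in both lines at this fold was not counted, so this list has no background. The median change of the tested members, with dim readings taken as read, was -0.27 in K5 and -1.66 in K6, against -0.03 and 0.04 over all tested genes. Because some of these members were tested only through the arrays where they were bright, the 13 members detected on all 4 arrays were also taken alone. Of these 13, 4 were at least 2-fold lower in K5 and 0 higher, against 13.6% and 10.8% of the 15896 genes so detected. In K6, 7 of the 13 were lower and 0 higher, against 15.3% and 14.5%. A limma fit on genes detected on all 4 arrays called 5 of the 13 lower (Irf1, Irf7, Irf9, Rtp4 and Stat2) and 0 higher, against 13.2% and 12% of those genes.

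Some interferon-stimulated genes are also active in immune cells, and markers of such cells were read in the same samples. Of 10 immune markers with a probe, 7 were detected on all 4 arrays, 2 were dim on all, among them Lyz2, and Itgax was detected on 1. Cd14 fell by 3.38 (SE 0.42, limma adjusted p = 0.040) and Cd68 by 1.79 (SE 0.26, limma adjusted p = 0.044). The other 5 tested did not pass, with log2 changes of -1.15 for Csf1r, -0.83 for Cd3e, -0.29 for Itgam, 0.23 for Siglech and 0.61 for Ptprc, the pan-leukocyte gene. The median of the 7 was -0.83, and 5 were lower in both K5 and K6. The summed level of the 10, on a linear scale with the 75th percentile as 1, was 106 and 105 in halofuginone K5 and K6, against 95.9 and 127 in control K5 and K6. Siglech made up most of it, with 91.8 and 94.7 in halofuginone K5 and K6, against 64.2 and 97.9 in control K5 and K6. The other 9, a split chosen after the values were seen, summed to 14.1 and 10.5 in halofuginone K5 and K6, against 31.7 and 28.9 in control K5 and K6. Such sums add different probes and describe only their own list. Their part in the result was not tested. In such bulk samples, fewer cells of a type and less RNA per cell cannot be told apart.

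**Figure D3:**
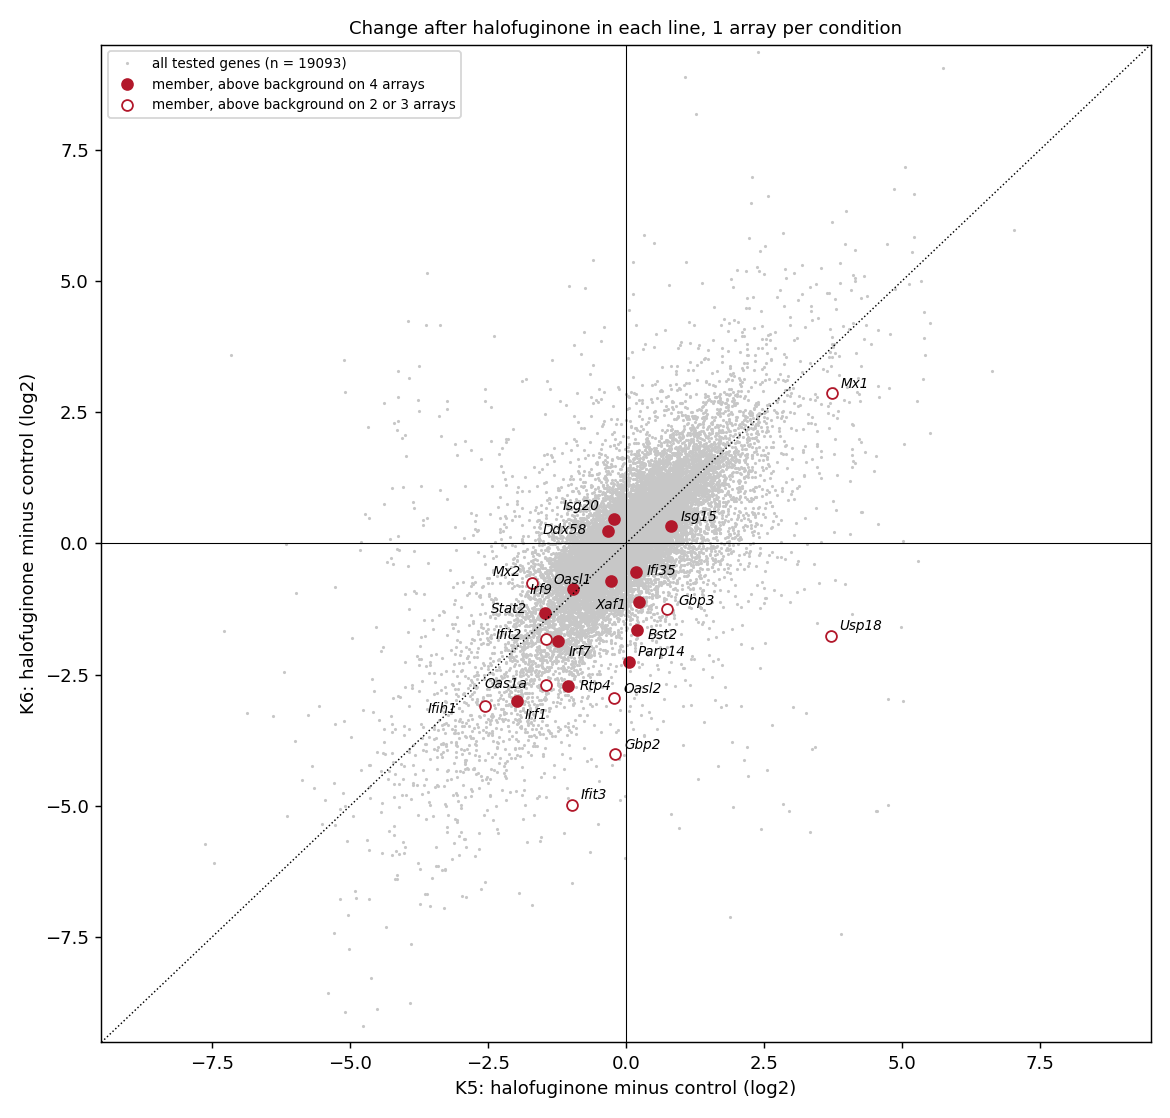
Log2 change after halofuginone in K5 (horizontal) and K6 (vertical) for all 19093 tested genes (grey) and the 23 tested members (red; open where an array was not well above background); the dotted line marks equal changes. Most members lie below the dotted line, with Ifit3, Gbp2, Oasl2 and Usp18 farthest below it.

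The changes of the lines were set side by side. The K6 change was below the K5 change in 18 of 23 tested members, against 46.7% of all tested genes. Signs were negative in both lines for 13 members, positive in both for 2 (Mx1 and Isg15) and opposite for 8, against 38.0%, 38.7% and 23.3% of all tested genes. Mx2, Oasl2 and Gbp3 were dim on both K6 arrays, so their K6 change has no measured level. The count of 18 and the counts of signs include these genes and others dim on some arrays, taken as read. Subtracting the K5 change from the K6 change gave -5.46 for Usp18, -4.0 for Ifit3, -3.83 for Gbp2, -2.74 for Oasl2 and -2.31 for Parp14. Of these 5, Parp14 alone was well above background on all 4 arrays. The other 4 had at least 1 dim array, so their differences depend on dim readings. The same subtraction gave 0.09 for Irf9 and 0.15 for Stat2. None of these differences could be tested.

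Between lines, with treatment in the fit, 0 of the 23 tested members passed as different in K6 against K5 (limma; 7 had an unadjusted p under 0.05, against 15.5% of all tested genes), where 0.0576% of all tested genes passed as higher and 0.115% as lower, 0.173% in all. In control samples, 3 members were at least 2-fold higher in K6 (Irf7, Parp14 and Usp18) and 3 lower (Gbp3, Isg15 and Mx2), against 7.74% and 6.87% of all tested genes. After halofuginone, 1 was higher in K6 (Stat2) and 13 lower, against 9.52% and 10.5%. These 13 were Bst2, Gbp2, Gbp3, Ifih1, Ifit3, Irf1, Isg15, Mx1, Mx2, Oas1a, Oasl2, Rtp4 and Xaf1, of which 7 were dim in halofuginone K6. The lines thus read 2-fold apart in more members after halofuginone than in the controls, a count with no test. The shares of all tested genes were also higher after halofuginone. Dim probes had a median of -7.07 in halofuginone K6 against -6.39 in control K6, so the count depends on dim readings. Oasl2, dim on both K6 arrays, gave K6 minus K5 as -0.97 in controls and -3.71 after halofuginone.

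In the fit of K6 against K5, Mx2 had the lowest adjusted p of the members. It was dim on both K6 arrays and detected on both K5 arrays, with K5 at least 5.87-fold above K6 (log2 difference K6 minus K5 -4.74, SE 0.35, limma adjusted p = 0.054). It was tested only through the K5 arrays, where it was high. Its chosen probe, on mm9 chromosome 16 from 97780076 to 97780135, is annotated to an Ensembl transcript, and a second probe was dim on all 4 arrays. Isg15 read lower in K6 under both conditions, by -1.53 in log2 units (SE 0.28, limma adjusted p = 0.15). Usp18 was at least 12.1-fold higher in control K6 than in control K5, and differed by -0.10 between the halofuginone samples.

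The other genes of the pathway were read from lists of 108 genes, of which 101 had a probe and 81 were tested. After halofuginone 13 of these 81 fell and 1 rose, against 5.08% and 3.88% of all tested genes, and 67 did not pass. The lists were chosen with earlier results of these data known, so the comparison with all genes is not independent of them. A limma fit on genes detected on all 4 arrays called 24 of 68 lower and 4 higher, against 13.2% and 12% of those genes. The median log2 change of the 81 was -0.40, against 0.01 over all tested genes.

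Upstream of the members, interferon ligands gave little signal. Of 15 with a probe, 7 were dim on all 4 arrays, Ifnb1 among them, and 0 of 7 tested passed (0 with an unadjusted p under 0.05). The alpha interferon genes are near-identical copies whose probes may share signal. Among the receptors and the kinases and factors that carry their signal, 0 of 9 passed (limma; 2 with an unadjusted p under 0.05). Every tested ligand, receptor and signal carrier changed by less than 2.80-fold, the smallest change that passed over all tested genes. The lack of calls here therefore does not show a lack of response. The type I receptor chains Ifnar1 and Ifnar2 had log2 changes of 0.09 (SE 0.26) and -0.51 (SE 0.29), and the kinases Jak1 and Tyk2 had 0.36 (SE 0.26) and -1.09 (SE 0.26, limma adjusted p = 0.079).

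Of 18 nucleic acid sensors and adaptors, 4 fell and 1 rose, beside the same 5.08% and 3.88% of all tested genes. Among them, Ikbke, a kinase that activates IRF3 and IRF7, fell by 2.74 (SE 0.40, limma adjusted p = 0.044). Aim2, a DNA sensor of the inflammasome, fell by 1.74 (SE 0.26, limma adjusted p = 0.045) and was dim on both K5 arrays.

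The DNA-sensing pair moved in opposite directions. Mb21d1, which encodes cGAS, had 0.31 in halofuginone K5 against -2.25 in control K5, and -0.37 in halofuginone K6 against -1.99 in control K6, and it rose by 2.09 (SE 0.35, limma adjusted p = 0.049). A second Mb21d1 probe, detected on 1 array, changed by 0.55 in K5 and -0.10 in K6. Tmem173, which encodes its partner STING, had 0.73 in halofuginone K5 against 2.71 in control K5, and -3.75 in halofuginone K6 against -0.30 in control K6, and it fell by 2.71 (SE 0.45, limma adjusted p = 0.048). Both halofuginone samples lay above both controls for Mb21d1. For Tmem173 each halofuginone sample lay below the control of its own line, but halofuginone K5 lay above control K6. Irf3, Mavs and Tbk1, the shared factor, adaptor and kinase, had log2 changes of -0.51 (SE 0.26), -0.10 (SE 0.26) and 0.63 (SE 0.31). Eif2ak2, the RNA-activated kinase PKR, had -1.19 (SE 0.38, limma adjusted p = 0.12). None of these 4 passed.

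Of 13 other IRFs and negative regulators 0 passed (limma; 5 with an unadjusted p under 0.05). Most of them also changed by less than 2.80-fold, the smallest change that passed over all tested genes. Socs1, which inhibits JAK kinases, had 0.36 in halofuginone K5 against -0.81 in control K5, and 0.73 in halofuginone K6 against -0.53 in control K6 (log2 change 1.22, SE 0.26, limma adjusted p = 0.064), with both halofuginone samples above both controls.

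Of 34 other tested interferon-stimulated genes, 9 fell and 0 rose, beside 5.08% and 3.88% of all tested genes. Parp9 and Dtx3l encode an ADP-ribosyltransferase and its ubiquitin ligase partner, which act as a complex. Parp9 had -2.56 in halofuginone K5 against 0.20 in control K5, and -4.13 in halofuginone K6 against 0.15 in control K6 (fell by 3.52, SE 0.46, limma adjusted p = 0.042). Dtx3l had -3.29 in halofuginone K5 against -0.34 in control K5, and -4.85 in halofuginone K6 against -0.25 in control K6 (fell by 3.78, SE 0.49, limma adjusted p = 0.042). Controls of the lines were nearly equal for both genes. Their probes lie on mm9 chromosome 16, Parp9 from 35972577 to 35972636 and Dtx3l from 35926655 to 35926714, near that of Parp14 from 35832992 to 35833051. A dimmer Parp9 probe for another transcript changed by 1.01 in K5 and 1.1 in K6, so the Parp9 probes disagreed.

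The enzymes that attach ISG15 to proteins were read beside Isg15. Uba7, its activating enzyme, had -3.06 in halofuginone K5 against 0.83 in control K5, and -6.90 in halofuginone K6, not well above background, against 0.73 in control K6. It fell by 5.76 (SE 0.97, limma adjusted p = 0.049, detected on 1 of 2 halofuginone arrays), and in K6 control was at least 53.5-fold above halofuginone. Ube2l6, the conjugating enzyme, changed by -1.36 in K5 and -1.21 in K6 without passing (limma adjusted p = 0.060). Herc6, the ligase in mice, changed by 1.39 in K5, where control was dim, and -0.18 in K6 (limma adjusted p = 0.42). Isg15, as given above, read higher after halofuginone in each line and did not pass.

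The other falls in that list were of several kinds. Samd9l, an antiviral growth regulator, fell by 2.81 (SE 0.36) and Ifi47, an immunity-related GTPase, by 2.55 (SE 0.29). Pml, which organises nuclear bodies, fell by 2.0 (SE 0.30) and Lgals9, galectin 9, by 1.84 (SE 0.26). Limma adjusted p lay between 0.039 and 0.045 for these 4, each detected on all 4 arrays. Ifi27l2a fell by 3.12 (SE 0.47, limma adjusted p = 0.045) with halofuginone K6 dim, and its second probe, detected in halofuginone K6 alone, changed by 4.53 there. Oas1c was detected in the control samples alone and so was tested only through the condition where it was high. It was at least 3.48-fold lower after halofuginone (limma adjusted p = 0.040 on values as read) and is 1 of the 9.

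**Figure D4:**
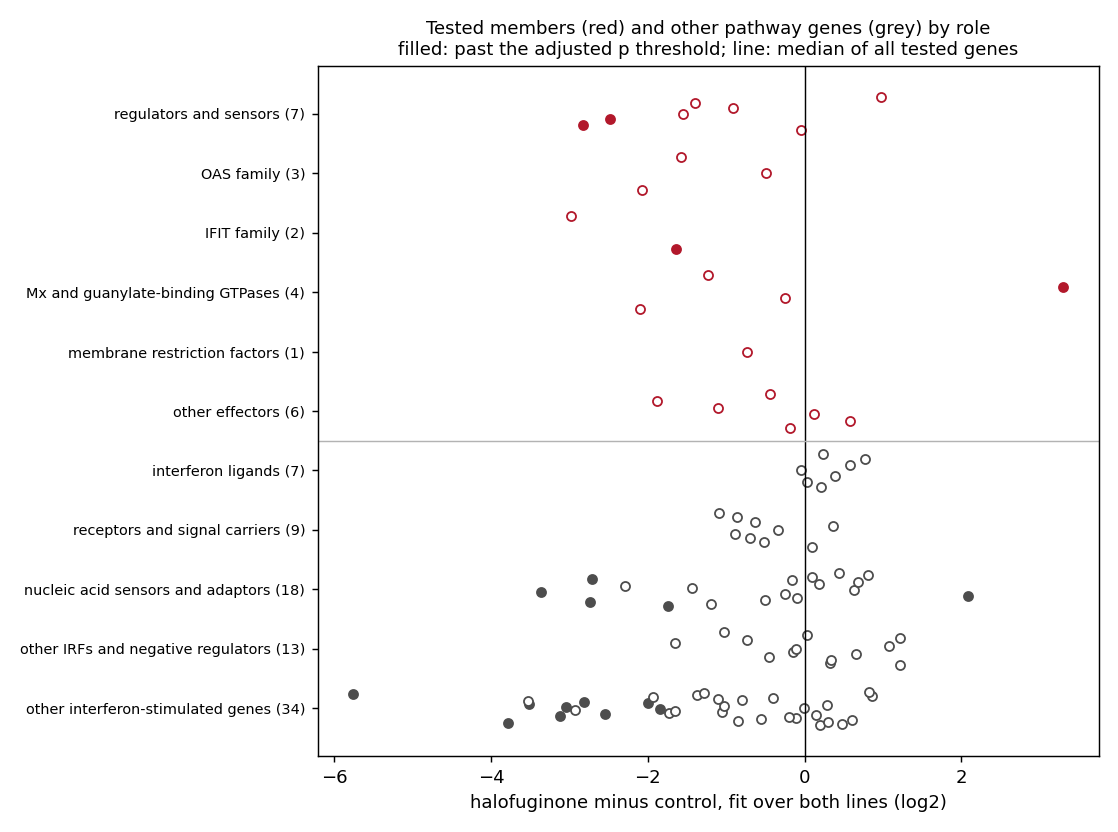
Log2 change after halofuginone in the fit over both lines for tested members (red) and other tested genes of the pathway (grey), by role, with the number tested in parentheses; filled points passed the adjusted p threshold, and the vertical line is the median of all tested genes. Filled points lie left of the line except Mx1 and Mb21d1, and none is among the ligands, the receptors and signal carriers or the negative regulators. The smallest change that passed over all tested genes was 2.80-fold.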

How the data were processed

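Per the file headers, Agilent Feature Extraction 10.7.1.1 produced the spot intensity values, while the submitters' processing notes name 9.5.1.1. The authors deposited this scanner intensity, which the software had corrected for background, and flags per spot. The authors' deposited value table served as an alternative. Its 4 columns share a median intensity of 33.0, and the sources used here do not give how it was made. Non-control spots without outlier flags were averaged per probe. Of 56605 probes, 301 had no such spot on at least 1 array and were left out. Values are log2 intensity minus the array's 75th percentile, from the brightest probe of a gene. Of the members' probe accessions, 31 matched the reference gene table, with the same symbols. A gene was tested if its probe was well above background on 2 or more arrays, using lmFit and eBayes of limma 3.58.1 (R 4.3.3; prior 2.97 degrees of freedom), checked on simulated data. The name K5 or K6 is the block because the series design compares halofuginone with control within each; that these are separate lines, each the same cells in both conditions, is assumed. K6 minus K5 in halofuginone samples correlated across genes with that in control samples at r = 0.50. All 33 members are named, and of the other pathway genes those past the threshold and 11 defining ones (some are not reported here), besides the enzymes Ube2l6 and Herc6, which were chosen after their values were seen. Members and lists were chosen with earlier results of these data known. All arrays lay on 1 slide, and their number limits the precision.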

Additional observations from a re-analysis of the deposited data

Results flagged for a closer look

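Usp18 changed at least 2-fold in opposite directions in the lines, with a K6 change minus K5 change of -5.46 on the log2 scale. Control K5 was not well above background there. With 1 array per line and condition this difference was not tested.

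Dhx58, which encodes LGP2, lay outside the tested genes because it was well above background in halofuginone K6 alone, at -4.01. That level is above the detection limits of both control arrays, -4.17 and -4.25. Halofuginone was at least 1.18-fold above control in K6, and the other arrays gave no measured level.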

How the results depend on the processing

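The counts depended on the settings. Of the 23 tested members, 4 changed after halofuginone, and the same 4 with quantile normalization and with the authors' deposited table. The count was 7 with median centring, 9 with normexp background and 0 with no filter, with probes averaged (the mean over probes) or without the replicate block (limma; 13, 10 and 8 at an unadjusted p under 0.05). Over all genes it was 1710, against 5472 with normexp background, 4012 with a filter on all 4 arrays, 592 with the mean over probes, 4200 with an intensity trend, and 0 with no filter and without the replicate block (limma; 15052 and 4492 unadjusted). For the other pathway genes it was 14, against 37 with normexp background, 28 with the filter on all 4 arrays and with the intensity trend, 4 with the mean over probes, and 0 with no filter and without the replicate block (limma; 43 and 28 unadjusted). Between K6 and K5, 0 members passed (limma; 7 unadjusted), against 1 with median centring and with the intensity trend (Mx2) and 4 with normexp background (Gbp3, Ifit3, Isg15 and Mx2). Over all genes that count was 33, against 149 with quantile normalization, 298 with median centring, 1325 with normexp background, 305 with the filter on all 4 arrays, 293 with the intensity trend, 152 with the authors' table, 110 with dim values at a common floor, and 0 with no filter, with the mean over probes and with treatment left out (limma; 3655, 2728 and 798 unadjusted). With the filter on all 4 arrays, 4 members instead of 10 changed at least 2-fold in K5 and 7 instead of 14 in K6. Without a filter the median change of all genes was -0.34. Log2 changes turned sign for Usp18 with normexp background (-0.028), Gbp3 at the common floor (0.37), and Isg20 with quantile normalization (-0.020) and the authors' table (-0.021), none of them called. The cause was not tested. Leaving out a line leaves no residual degrees of freedom, so counts without a replicate were not run.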
